A study of Mus musculus with 2 samples.

Results

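The 10 genes described here write, read and erase DNA methylation in the mouse: the methyltransferase genes Dnmt1, Dnmt3a and Dnmt3b, the Tet1, Tet2 and Tet3 dioxygenase genes, Uhrf1, and the methyl-CpG-binding domain genes Mbd1, Mbd2 and Mbd3. They were looked up by symbol among all genes named beside the peaks of tagged Sox4 on chromatin, and 9 of the 10 were named, as against 10250 of the 20953 protein-coding genes examined (48.9%). Over the transcription start site (TSS) itself, 7 of the 10 had a peak, where 28.4% of all protein-coding genes did. Mbd1 was the gene not named beside any peak. Tet1 and Tet3 were named only for peaks away from their listed starts.

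Methylation of cytosine in CpG dinucleotides is laid down on unmethylated DNA by Dnmt3a and Dnmt3b and copied onto the new strand after replication by Dnmt1, which Uhrf1 brings to half-methylated sites. Tet enzymes oxidise methylated cytosine, the first step of its removal. Mbd1 and Mbd2 bind methylated CpG, and Mbd2 and Mbd3 are alternative subunits of the NuRD complex, which joins nucleosome remodelling to histone deacetylation. In blood cells these enzymes shape lineage choice, and Dnmt3a and Tet2 are often mutated in leukaemia. Sox4 is an HMG-box transcription factor of early B-cell development, and SOX proteins in general bind words such as AACAAAG and AACAATG.

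The cells were C57BL/6 progenitor B cells from embryonic fetal liver, immortalized with the oncogene p190 Bcr-Abl. Besides p190 Bcr-Abl, given second, they had received retroviruses for BirA (a biotin ligase, first), for SE-Cre (the third) and for BAP-Sox4 (last; Sox4 with a tag that BirA biotinylates), with a sort after each, so Sox4 was supplied by a retrovirus and every library of the series carries all 4 constructs. The series has 1 streptavidin pull-down library and 1 input chromatin library. Only the pull-down's peak list was analysed here, with no replicate, so no test between conditions was possible and each value below is a description of this library. The list held 8730 peaks, of which 5545 lay over a TSS. The depth of sequencing is unknown here, and no pull-down from cells lacking the tagged protein was at hand, so a peak does not by itself show Sox4 binding. Of 9 genes that mark progenitor B cells, 9 were named beside a peak (48.9% of all protein-coding genes). Of the same 9, 7 had one within 5 kb of the TSS (32.8% of all protein-coding genes). Over the TSS, 3 had one (33.3%, near the 28.4% of all genes). Of 13 marker genes of T, erythroid, myeloid and liver cells, 5 were named (38.5%, beside 48.9% of all genes). Of the same 13, 1 had a peak within 5 kb (beside 32.8%) and 0 had one over the TSS (beside 28.4%). Peaks are not expression, so these counts do not type the cells.

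The windows around the starts that the results turn on are shown first, since the members differed in which of their starts lay under a peak and in how many CpG dinucleotides those starts held. Each runs 5′ to 3′ on the gene's strand, from 250 bases before the start to 50 after it, and capitals mark each CpG. They come from RefSeq on GRCm38.p6, another build than the mm9 of the peaks, and were tied to the listed starts by the spacing of starts and gene ends within each build. That spacing was the same within 1 bp, except that the Mbd3 window starts 54 bp farther out, and for Tet2 the window's start lies 80713 bp from the gene's end and the peak summit 80681 bp. Their places on that build are chr10:80399482-80399781 (minus strand) for Mbd3, chr12:3806730-3807029 and chr12:3891494-3891793 (plus) for Dnmt3a, and chr17:56304063-56304362 and chr17:56303087-56303386 (plus) for Uhrf1. Those of Dnmt1 are chr9:20952574-20952873 and chr9:20959839-20960138 (minus), that of Tet2 is chr3:133544341-133544640 (minus) and that of Tet3 is chr6:83441629-83441928 (minus).
Mbd3: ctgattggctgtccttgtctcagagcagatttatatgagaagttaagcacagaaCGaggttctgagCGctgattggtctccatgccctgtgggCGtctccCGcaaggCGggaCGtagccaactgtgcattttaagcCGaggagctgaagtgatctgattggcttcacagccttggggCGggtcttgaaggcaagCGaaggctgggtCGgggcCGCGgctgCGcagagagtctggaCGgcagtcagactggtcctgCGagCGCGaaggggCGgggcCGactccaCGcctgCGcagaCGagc
Dnmt3a, first start: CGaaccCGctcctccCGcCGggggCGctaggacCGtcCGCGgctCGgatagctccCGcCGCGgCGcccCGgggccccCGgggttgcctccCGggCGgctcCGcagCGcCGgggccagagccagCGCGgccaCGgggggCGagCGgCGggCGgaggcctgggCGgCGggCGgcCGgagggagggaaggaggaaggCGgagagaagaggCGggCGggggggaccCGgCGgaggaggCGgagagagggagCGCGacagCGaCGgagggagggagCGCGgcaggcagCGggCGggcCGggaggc
Dnmt3a, internal start: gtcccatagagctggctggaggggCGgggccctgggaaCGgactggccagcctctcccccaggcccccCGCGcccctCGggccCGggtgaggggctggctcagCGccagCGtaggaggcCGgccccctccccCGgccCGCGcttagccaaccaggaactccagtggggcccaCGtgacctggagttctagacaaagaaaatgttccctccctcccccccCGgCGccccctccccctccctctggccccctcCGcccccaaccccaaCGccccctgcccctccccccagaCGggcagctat
Uhrf1, inner start: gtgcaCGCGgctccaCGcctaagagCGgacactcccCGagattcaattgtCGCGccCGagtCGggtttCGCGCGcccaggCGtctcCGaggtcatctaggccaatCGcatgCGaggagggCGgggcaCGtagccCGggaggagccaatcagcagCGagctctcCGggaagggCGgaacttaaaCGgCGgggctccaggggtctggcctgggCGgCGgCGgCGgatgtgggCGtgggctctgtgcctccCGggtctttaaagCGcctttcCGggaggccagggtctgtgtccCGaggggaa
Uhrf1, outer start: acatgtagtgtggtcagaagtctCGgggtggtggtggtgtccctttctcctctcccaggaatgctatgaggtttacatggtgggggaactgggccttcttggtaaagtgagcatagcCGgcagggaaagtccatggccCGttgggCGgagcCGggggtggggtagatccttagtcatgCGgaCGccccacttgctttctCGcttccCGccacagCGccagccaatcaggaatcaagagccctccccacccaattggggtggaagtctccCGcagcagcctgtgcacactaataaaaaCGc
Dnmt1, inner start: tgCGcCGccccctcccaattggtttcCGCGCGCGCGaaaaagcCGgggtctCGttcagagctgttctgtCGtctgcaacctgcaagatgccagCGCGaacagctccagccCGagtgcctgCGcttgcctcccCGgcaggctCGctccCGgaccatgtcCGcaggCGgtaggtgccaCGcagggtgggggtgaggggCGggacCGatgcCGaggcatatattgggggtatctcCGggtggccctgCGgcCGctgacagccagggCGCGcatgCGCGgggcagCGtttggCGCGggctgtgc
Dnmt1, outer start: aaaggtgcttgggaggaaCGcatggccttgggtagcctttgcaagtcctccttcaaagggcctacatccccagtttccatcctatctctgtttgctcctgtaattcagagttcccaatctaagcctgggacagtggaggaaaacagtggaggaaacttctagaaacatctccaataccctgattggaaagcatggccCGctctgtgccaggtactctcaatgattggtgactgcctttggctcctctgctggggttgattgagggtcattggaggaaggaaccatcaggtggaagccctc
Tet2: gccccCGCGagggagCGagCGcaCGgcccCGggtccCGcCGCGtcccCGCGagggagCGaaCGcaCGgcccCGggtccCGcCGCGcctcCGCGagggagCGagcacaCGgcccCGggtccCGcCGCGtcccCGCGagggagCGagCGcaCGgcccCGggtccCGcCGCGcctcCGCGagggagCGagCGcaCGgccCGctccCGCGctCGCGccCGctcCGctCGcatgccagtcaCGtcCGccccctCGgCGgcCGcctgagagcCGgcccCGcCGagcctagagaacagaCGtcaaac
Tet3, listed start: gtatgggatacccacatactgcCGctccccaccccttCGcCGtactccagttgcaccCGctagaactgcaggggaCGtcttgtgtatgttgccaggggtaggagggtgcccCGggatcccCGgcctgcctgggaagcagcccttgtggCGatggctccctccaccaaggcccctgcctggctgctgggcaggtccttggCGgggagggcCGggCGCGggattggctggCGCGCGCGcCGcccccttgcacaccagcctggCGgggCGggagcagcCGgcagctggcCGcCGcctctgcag
The inner windows of Dnmt1 and Uhrf1, both Dnmt3a windows and those of Tet2 and Mbd3 lay at starts under a peak. The outer windows of Dnmt1 and Uhrf1 and the Tet3 window did not.

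**Figure D1:**
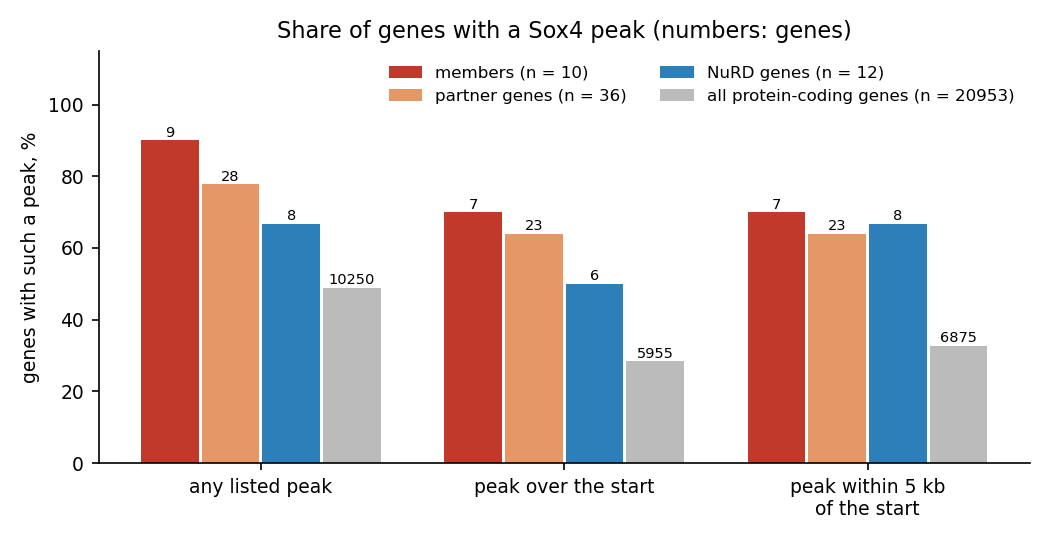
Share of genes (y axis, percent) with any listed peak, a peak over the TSS and a peak within 5 kb of it, for the 10 DNA methylation genes, 36 partner genes, 12 NuRD genes and all 20953 protein-coding genes; the number on each bar is the count of genes. The bars of the 10 genes stand at 9, 7 and 7 genes, above the share of all genes in each class. The gene lists were chosen with earlier results of these data known.

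Peaks within 5 kb of a TSS were found for the same number of members, 7 of 10, against 32.8% of all protein-coding genes. The genes with no peak that near were Tet1, Tet3 and Mbd1. In all, 21 peaks were listed for the members. Of these, 8 lay over a start of the member, 3 inside the gene, 4 upstream and 6 past the transcription end site (TES). Of the 13 peaks not over a member's start, 7 covered the TSS of another gene, namely Ppan, S1pr2, Commd7, Ccar1, Bola3, Kdm4b and Mex3d. The other 6 covered no TSS. Of these, only an intron peak of Dnmt3a and an exon peak of Uhrf1 had the member as closest gene. The rest were closest to Plin3, Mex3d, Gm10485 and B230319C09Rik. When each peak was given only to its closest gene, 7 members were still named (30.7% of all genes), the loss being Tet1 and Tet3. All protein-coding genes include silent ones, and expression was not analysed here, so the members' share was not set against that of active genes.

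**Figure D2:**
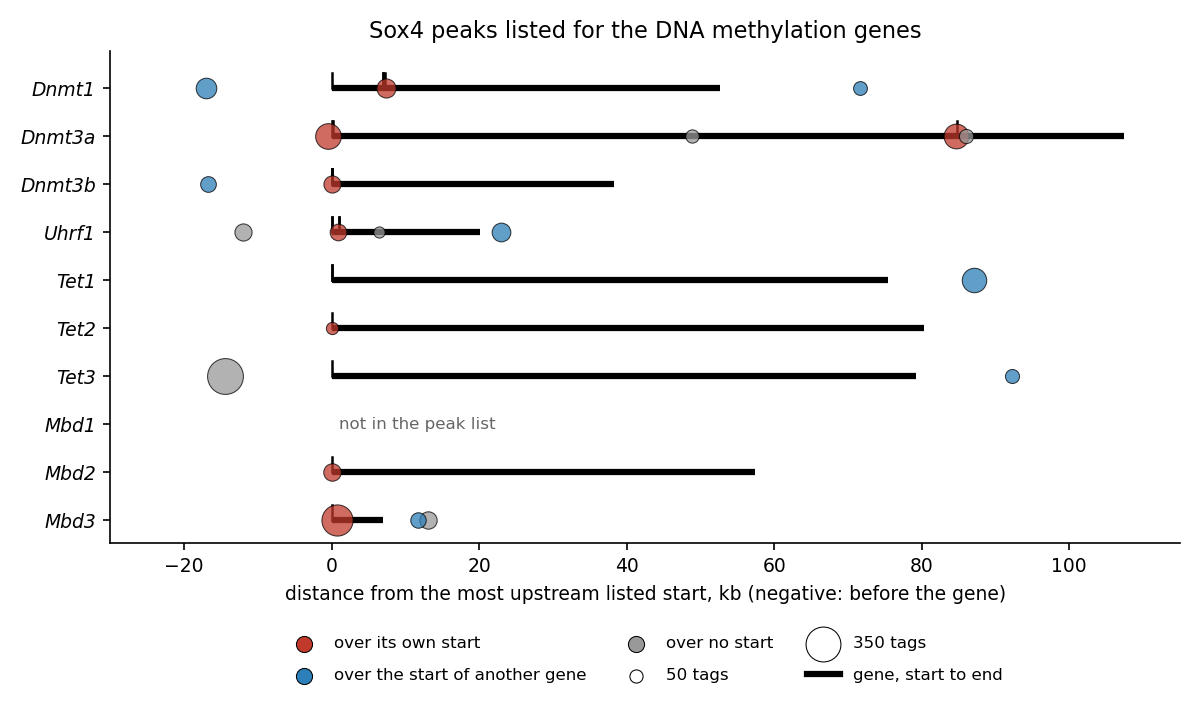
Every listed peak of each member (circles, area in proportion to tags) along the gene (black bar from the most upstream listed TSS to the TES; upright ticks are listed starts), in kb on the x axis; circles sit at the peak summit, or for Tet1, Tet2 and Mbd2 at the distance of the peak interval. Red peaks lie over a start of the member, blue ones over the start of another gene and grey ones over none; the Tet3 circle at the left is the one with the most tags, 370.

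For the copying of methylation, Dnmt1 and Uhrf1 each had 1 peak over a start and each missed a start farther out. Dnmt1, the maintenance methyltransferase, had a peak at chr9:20756431-20757680 (mm9) over the starts of NM_001199433, NM_001199431 and NM_010066. It held 105 tags (exact Poisson 95% interval 85.9 to 127). Its deposited fold, a ratio to the background the peak caller expected, was 2.62. Its deposited score, which rises as the p-value of the peak falls (10 times the negative log10 of p), was 60.81. The tag count exceeded that of 70.7% of peaks over a TSS, and the fold exceeded that of only 0.289% of them, so the 2 measures ranked this peak very differently. The summit lay 148 bp inside the gene from the start of NM_001199433 and 504 bp from that of the other pair. The outermost start, that of NM_001199432, lay 6652 bp from the peak and under none. Stronger by fold, at 7.94 with 122 tags, was a peak 16416 bp before that outer start, but it covered the TSS of S1pr2. A peak past the gene's end covered that of Ppan (55 tags, fold 3.08).

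Uhrf1, which recognises half-methylated DNA, had a peak at chr17:56443238-56444089 (mm9). It held 80 tags (63.4 to 99.6), and its fold was 6.25 and its score 191.39. The fold was above that of 83.8% of peaks over a TSS, while the tags stood at the middle of them (median 80). The summit lay 48 bp before the start shared by NM_001111078 and NM_001111080. The outer start, of NM_010931 and NM_001111079, lay 479 bp outside the peak interval. Uhrf1 was also named for a peak in an exon 5211 bp past the inner start (36 tags, 25.2 to 49.8, fold 4.29) and for one 11622 bp before the outer start (85 tags, fold 8.82). That upstream peak was closest to Plin3, at 454 bp before its TSS. A peak 2245 bp past the Uhrf1 TES covered the TSS of Kdm4b (101 tags, fold 5.33). At least 4 listed peaks were found for 702 of the 10250 named protein-coding genes (6.85%), and Uhrf1 and Dnmt3a, with 4 each, were among them.

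Among the de novo enzymes, Dnmt3a had peaks over both of its separate promoters, and Dnmt3b had 1 weaker peak. The first Dnmt3a promoter drives the long protein, and an internal one drives a shorter form that lacks the N-terminal part. The peak at the first promoter, chr12:3806123-3808175 (mm9), covered the starts of NM_007872 and NM_001271753. It held 190 tags (164 to 219; fold 4.33, score 302.47), and its summit lay 544 bp before the first of these starts. The peak at the internal promoter, chr12:3890812-3892351, covered the start of NM_153743, 84.8 kb away. It held 176 tags (151 to 204; fold 9.86, score 540.49), with the summit 141 bp before the start. The 2 tag counts had overlapping counting intervals, and the folds stood above 43.9% and 95.6% of peaks over a TSS. The peak at the first promoter was also wider, at 2052 bp against 1539 bp. Its tags per kb were 92.6 against 114. Peaks over starts whose summits lie 10 kb or more apart were found in 31 of the 5955 protein-coding genes with a TSS peak (0.521%), and Dnmt3a was one of them. The 5955 include genes with no second start that far away, which could not qualify. The share among genes with such starts was not worked out.

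Inside Dnmt3a were a peak 681 bp past the internal start, in an intron (58 tags, 44.0 to 75, fold 3.52), and one at chr12:3855486-3856206 (51 tags, 38.0 to 67.1, fold 5.42). The second lay between the promoters and 3087 bp past the TES of Gm10485, its closest gene. Dnmt3b, the other de novo enzyme, had a peak at chr2:153474696-153475778 (mm9) with 85 tags (67.9 to 105; fold 3.49, score 93.71). Its summit fell on the start shared by all 9 listed Dnmt3b transcripts, within 1 bp. The fold exceeded that of 14% of peaks over a TSS. The peak 16365 bp upstream of Dnmt3b covered the TSS of Commd7 (71 tags, fold 2.74). Each of the 3 methyltransferase genes thus had a peak over a start, and of their 4 such peaks only that at the internal Dnmt3a promoter had a fold above the 4.50 median of all peaks over a TSS.

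Of the erasers, only Tet2 had a peak over its listed start, and it was the weakest by tags of the 8 peaks over member starts. Tet2, a dioxygenase often mutated in blood cancers, had a peak at chr3:133206939-133207554 (mm9; NM_001040400) with 43 tags (31.1 to 57.9; fold 4.10, score 80.17). Only 4.36% of peaks over a TSS held fewer tags, and at 615 bp it was the narrowest of the 8. The Tet2 window printed above holds a tandem repeat: a word of 43 bases occurs in it more than once, and 0.186% of the windows of protein-coding genes (38 of 20418, median 9 bases) hold a repeated word as long. What this repeat did to read placement was not tested.

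Tet3 was named for a peak with more tags than any other of the 21. It lay at chr6:83405154-83407385 (mm9), 13483 bp upstream of the listed start of NM_183138, and held 370 tags (333 to 410; fold 15.4, score 1219.5). By score it ranked 86 of all 8730 peaks, and 21 among the 3185 that covered no listed TSS. The list placed it downstream of its closest gene, the noncoding B230319C09Rik, 6839 bp past that gene's TES. The interval ran from 13.5 to 15.7 kb before the listed Tet3 start. In the later RefSeq annotation (GRCm38.p6) the Tet3 gene reaches 15.5 kb beyond the same start, identified by its distance of 79305 bp to the gene's end (79304 bp in the list). The outer end of the later Tet3 gene model would therefore fall within the peak interval, if spacing is the same in both builds. By the listed starts it was counted as a peak over no TSS. The other Tet3 peak, 12556 bp past the TES, covered the TSS of Bola3 (57 tags, fold 6.70).

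Tet1 had no peak over its listed start or in the gene, and was named for none upstream. It was named for a peak 11668 bp past its TES that covered the TSS of Ccar1 (chr10:62254292-62255650; 172 tags, 147 to 200, fold 10.56). The nearest peak upstream of the Tet1 start lay 40.3 kb away and was closest to Slc25a16. Genes were named in the list for peaks at most 25 kb away. In the later annotation the Tet1 window lies 7.31 kb beyond the listed start, which is also under no peak.

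Among the methyl-CpG-binding domain genes, Mbd3 had the strongest peak over a start of any member, Mbd2 an intermediate one and Mbd1 none. Mbd3, a NuRD subunit, had a peak at chr10:79861018-79862981 (mm9; NM_013595) with 280 tags (248 to 315; fold 15.48, score 923.46). It ranked 153 of 8730 by score, and its fold exceeded that of 98.1% of peaks over a TSS. Among the 5545 peaks over a TSS, 239 had a fold of at least 10 (4.31%). The summit lay 675 bp inside the gene, which spans 6938 bp in the list. Past the Mbd3 TES, a peak at 4408 bp covered the TSS of Mex3d (69 tags, fold 6.19) and one at 5839 bp lay in an exon of Mex3d (87 tags, fold 3.42). Mbd2, the methyl-CpG-binding alternative to Mbd3 in NuRD, had a peak at chr18:70727518-70728405 (mm9; NM_010773) with 88 tags (70.6 to 108; fold 6.17, score 164.1). The fold exceeded that of 82.9% of peaks over a TSS. The counting intervals of Mbd2 and Mbd3 did not overlap, but these are totals over peaks of unlike width. The Mbd3 peak was 1963 bp wide and that of Mbd2 887 bp, with 143 and 99.2 tags per kb. Mbd1 was not named in the list, and neither was any neighbouring gene examined. Among those neighbours was Cxxc1, which encodes another CpG-binding protein.

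**Figure D3:**
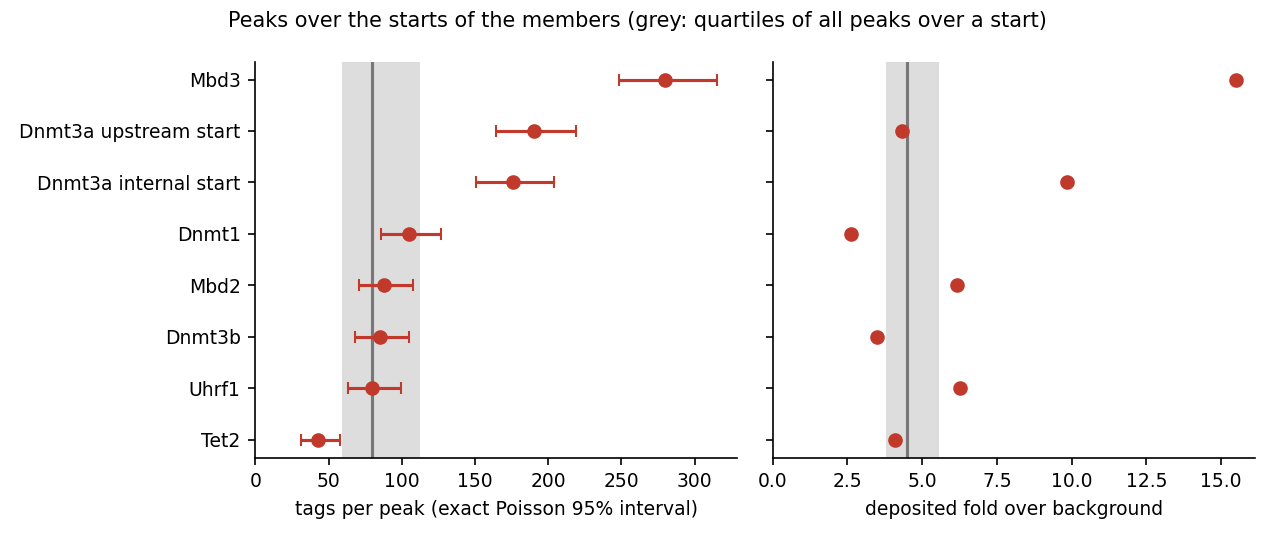
Tags per peak with exact Poisson 95% intervals (left) and deposited fold over background (right) for the 8 peaks over starts of members; the grey band and line are the quartiles and median of all 5545 peaks over a TSS. Mbd3 has the most tags and the highest fold, while the first Dnmt3a promoter, Dnmt1 and Dnmt3b have tags above the median (80) at folds below it (4.50).

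Across the 8 peaks over member starts, tags ran from 43 to 280 with a median of 96.5, beside a median of 80 for all peaks over a TSS. Folds ran from 2.62 to 15.48 with a median of 5.25, beside 4.50. Scores had a median of 177.7 beside 120.7. Of the 8, 4 exceeded the median fold, 6 the median tags (the Uhrf1 peak equals it) and 5 the median score. Among peaks at or above the median score of the whole list, 7 members were named (31.5% of all protein-coding genes) and 4, namely Dnmt3a, Uhrf1, Mbd2 and Mbd3, had a peak over the TSS (16.7%) and within 5 kb of it (18.9%). Among peaks with a fold of 5 or more, 7 members were named (22.6%), and the same 4 genes had one over the TSS (10.1%) and within 5 kb (11.9%). In both of these stricter sets Dnmt1 was named only for the S1pr2 peak and Tet1 only for the Ccar1 peak. At a fold of 10 or more, 3 members were named (3.24%), Tet1 for the Ccar1 peak, Tet3 for the upstream peak and Mbd3, and Mbd3 alone had one over the TSS (1.21%) or within 5 kb (1.48%). When a peak counted for its closest gene alone, 7 members had a peak over the TSS (25%) and within 5 kb (27.6%). Distances of 1 and 20 kb gave 7 and 8 members (30.2% and 41.9%), the eighth being Tet3.

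Promoter windows were matched for 8 of the 10 genes and numbered 13, with several for Dnmt1, Dnmt3a and Uhrf1. CpG counts differed between starts of the same gene. At Dnmt1 the inner window held 33 CpG, that at the middle start 12 and the outer one 2. The summit was nearest to the start with 33. The middle start, with 12, also lay under this peak, and the start with 2 lay under no peak. At Uhrf1 the inner window, under the peak, held 33 CpG and the outer one 12. At Dnmt3a both promoters lay under a peak. The internal start held 18 CpG (fold 9.86, 176 tags) and the first start 46 CpG, or 47 in the overlapping window of NM_001271753 (fold 4.33, 190 tags). The start with fewer CpG thus had the higher fold, while the tag counts had overlapping intervals. Tet2 held 57 CpG, more than 99.8% of windows of protein-coding genes, and had the fewest tags of the 8 peaks. Mbd3 held 22, as did Tet3 at its listed start, where no peak lay. Dnmt3b held 30 and Tet1 17.

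**Figure D4:**
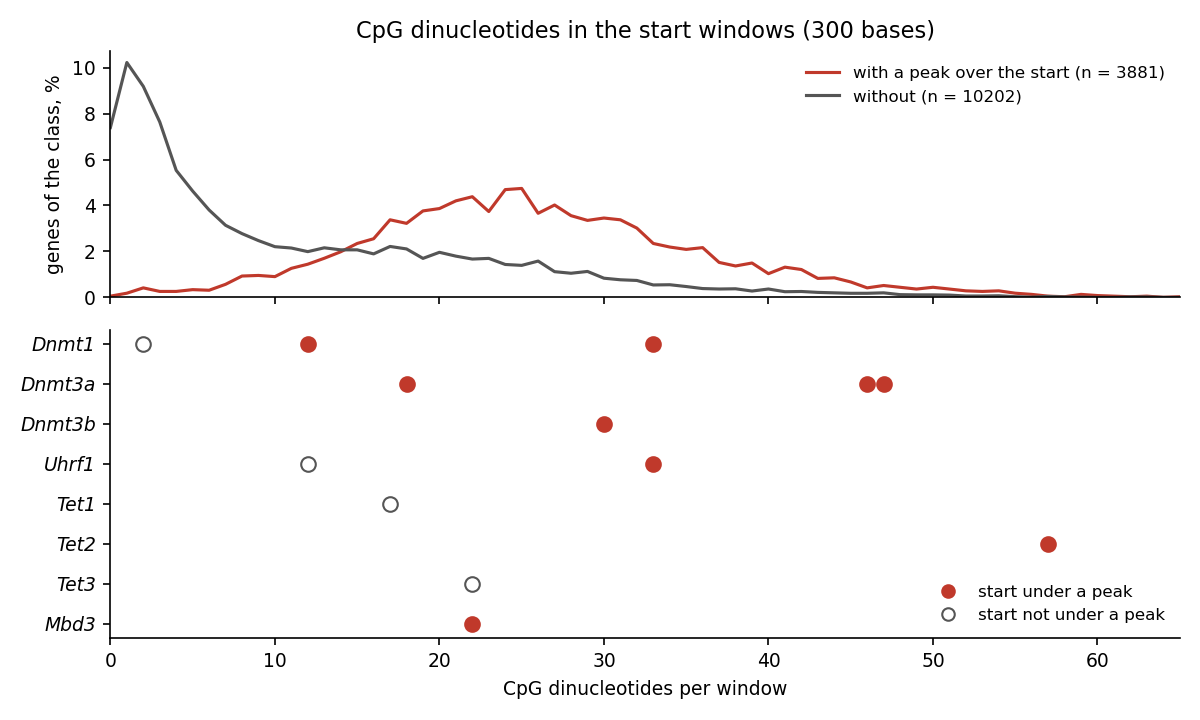
Upper panel: percent of genes (y axis) by CpG dinucleotides in the 300-base start window (x axis), for genes with a single window, split by a peak over the start. Lower panel: the 13 windows of the members, filled where the start lay under a peak; at Dnmt1 and Uhrf1 the open circle is the window with the fewest CpG of that gene (2 and 12).

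For comparison, genes with a single window and a peak over the start had a median of 25 CpG (quartiles 19 and 32, 3881 genes). Those without had a median of 7 (quartiles 2 and 18, 10202 genes). A peak lay over the start of 1.09% of genes with 0 to 4 CpG, 12.6% with 5 to 14, 42.6% with 15 to 24, 57% with 25 to 34 and 61.4% with 35 or more. The median fold of these peaks ran from 4.44 to 4.69 over the classes. Their median tags were 74, 70, 73, 82 and 98 in the same order of classes, the first of which rests on 45 genes. Across these genes, which are not independent replicates, CpG number thus went with the presence of a peak and, from the second class up, with its tags, and the median fold differed little. The part of base composition in the members' peaks was not tested.

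Neither AACAAAG nor AACAATG, searched on both strands, occurred in any of the 13 member windows. At least 1 of them was found in 7.85% of the 20418 windows of protein-coding genes, in 5.54% of single-window genes with a peak over the start and in 9.41% of those without. These words are thus rare in all such windows, and their absence says only that the letters are not in these windows. A window covers at most part of a peak, and the rest of each peak was not searched. The summits at Mbd3 (675 bp inside the gene), Dnmt1 (148 bp inside) and the first Dnmt3a start (544 bp before it) lay outside the windows. The GC-box word GGGCGG (both strands), which SP and KLF factors bind, which can share 1 end base with a SOX word and which holds a CpG itself, occurred in 11 of the 13, against 47.7% of all windows and 75.9% of single-window genes with a peak. The 2 windows without it were the outer and the middle one of Dnmt1. The 13 include several windows of the same gene, overlapping at Dnmt3a, and are thus unlike the single-window genes. Some also lay under no peak: of these, Tet1, Tet3 and the outer Uhrf1 window held the word and the outer Dnmt1 window did not.

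The partner genes comprised 36 genes whose products act with the members: further methyl-CpG readers, repair enzymes that finish demethylation, CXXC proteins, suppliers of cofactors and recruiters. This list and the NuRD list below were chosen with earlier results of these data known, so their shares are descriptions only. Of the 36 partner genes, 28 were named beside a peak (77.8%, beside 48.9% of all protein-coding genes). Within 5 kb of the TSS, 23 had a peak (63.9%, beside 32.8%). In each of the 23 a peak lay over the TSS, a class that held 28.4% of all genes. Trim28, a corepressor that keeps methylation at imprinted genes and retroelements, had 608 tags (561 to 658; fold 40.05, score 3068.62). Ctcf, the insulator protein whose binding is sensitive to CpG methylation, had 266 tags (235 to 300) and a fold of 7.75. Gadd45a, a stress-response gene linked to demethylation, had 136 tags (114 to 161) at a fold of 15.1. Uhrf2, the paralogue of Uhrf1, had 152 tags (129 to 178) at a fold of 7.45. Its tag interval lay above that of Uhrf1, with peak width not taken into account. Cxxc5 and the histone demethylase genes Kdm2b and Kdm2a, whose products bind CpG islands, had folds of 4.20, 6.50 and 4.61. Idh2, which encodes an isocitrate dehydrogenase that makes the Tet cosubstrate, had 214 tags (186 to 245) at a fold of 5.75. Among those not named were Hells, Dppa3, Smug1, Cxxc1, Cxxc4, Ogt and Zfp57. The median fold of the 23 was 4.85 and the median score 172.4, beside 4.51 and 119.2 over all protein-coding genes with such a peak.

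The other subunits of NuRD, the complex of Mbd2 and Mbd3, had a peak within 5 kb of the TSS in 8 of 12 genes (66.7%, beside the same 32.8%). The highest score was at Cdk2ap1, 903.09, in a peak 1667 bp inside the gene with 210 tags (183 to 240) and a fold of 18.15. Rbbp4, a histone-binding subunit, had 215 tags (187 to 246) at a fold of 10.43 in a peak whose closest gene was Zbtb8os. The deacetylase gene Hdac2 had 158 tags (134 to 185) at a fold of 5.02, and Mta2 had 172 (147 to 200) at 4.22. Chd3, Mta3, Rbbp7 and Gatad2b were not named, a set picked out after the values were seen. The median fold of the 8 was 4.17, below the 4.51 of all genes with such a peak, and the median score 224.8, above the 119.2 of those genes. With 280 tags, Mbd3 held more than each of these 8 genes' highest-scoring peaks.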

How the data were processed

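Chromatin of 1 pull-down sample was sequenced, with 1 input library whose file was not used here. The tools named are Bowtie 0.12.8 and MACS 1.4.2, on the mm9 build, per the submitters' processing notes. The parameters, the library that gave the background and the annotation tool are not given in the sources used here. The deposited tag number is an unnormalized count of reads per peak. The deposited fold is a linear ratio to the background the peak caller expected. The deposited score, headed as a p-value, was taken to be 10 times the negative log10 of p, as MACS writes it. Per the file headers, distances in bp run from the peak interval to the start and end of each listed RefSeq transcript, with 0 for overlap.

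Each semicolon-joined entry was split, and its 15228 transcripts were matched to mouse RefSeq genes (GRCm38.p6): 14992 by accession, 192 by symbol, 32 by an older symbol, 12 not. All 20953 protein-coding genes of the autosomes (1 to 19) and X that have an NM transcript served as the background. Starts on mm9 were worked out from non-zero distances, and estimates from different peaks of a transcript agreed within 1 bp. Whether positions count from 0 or 1 was not stated, and a width is end minus start. Tag intervals are exact Poisson 95% intervals and cover counting error only. The step that sorts genes by the distance of their peaks was checked on a simulated list; no share in the text was tested against simulations. Python 3.11.15, pandas 2.3.3, SciPy 1.17.1 and matplotlib 3.10.9 were used.

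The members and lists were chosen with earlier results of these data known. All 10 members were named. From the partner and NuRD lists, up to 8 and 4 genes with the highest score within 5 kb of the TSS were named, and up to 8 partner genes without a peak. A gene that this rule names is not reported here. Alternatives were stricter peak sets, the closest gene only, and windows of 1 and 20 kb.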

Additional observations from a re-analysis of the deposited data

How the results depend on the processing

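Of 26 recomputed counts, 15 stayed within 1.5 times the reported value and 11 did not, all of the latter under a stricter choice of peaks. With only peaks at or above the median score, 4 of 10 members had a peak over the TSS (16.7% of all genes) and 4 within 5 kb (18.9%). With a fold of 5 or more, 4 members had a peak over the TSS (10.1% of all genes) and 4 within 5 kb (11.9%), as had 11 of 36 partner and 3 of 12 NuRD genes. With a fold of 10 or more, 3 members were named (3.24% of all genes), 1 had a peak over the TSS (1.21%) and 1 within 5 kb (1.48%), as had 2 partner and 2 NuRD genes. A window of 20 kb gave 8 members (41.9% of all genes) and one of 1 kb gave 7 (30.2%). No paired analysis was possible because there is 1 pull-down library, and no library could be left out. The peak list holds no depth, so an unlisted gene such as Mbd1 may hold tags below the peak caller's threshold.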
